A study of Arabidopsis thaliana with 12 samples.

Results

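Asparagine synthetase, asparaginase and glutamate dehydrogenase are the enzymes by which leaf cells make asparagine, break it down and exchange ammonium with the amino group of glutamate. A chosen list of Arabidopsis genes for them was taken by locus name from the deposited gene tables, 8 of 37242 genes in each: ASN1 (AT3G47340), ASN2 (AT5G65010), ASN3 (AT5G10240), ASPGA1 (AT5G08100), ASPGB1 (AT3G16150), GDH1 (AT5G18170), GDH2 (AT5G07440) and GDH3 (AT3G03910). Their poly(A) RNA was measured in young leaves of Col-0, the reference accession, and of npf8.4-1, a mutant of the peptide transporter family gene NPF8.4. Both genotypes were raised in hydroponic culture on 5 mM KNO3, with 16 h of light a day. Leaves were taken after 15 days of this growth (day 0), or 2 days after a move to nitrogen-free medium (day 2). The 4 groups hold 3 biological replicates each, every one a pool of 15 plants, so the spread is that between pools. The npf8.4-1 mutant is a single allele. Plants at day 2 were also older than plants at day 0, and fed plants of the later age were not analysed here, so depletion and age cannot be told apart.

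Asparagine carries much nitrogen per carbon and is a main form in which plants store nitrogen and move it in the phloem and xylem. Asparagine synthetase makes it from aspartate and the amide group of glutamine, and asparaginase splits it again into aspartate and ammonium. Glutamate dehydrogenase is a mitochondrial enzyme that in leaves mostly releases ammonium and 2-oxoglutarate from glutamate, so it can feed carbon back to respiration. ASN1 is the synthetase gene known as DARK INDUCIBLE 6, raised in darkness and by sugar shortage and repressed by sugar.

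The 12 libraries held 28761674 to 34282716 exon reads each. NPF8.4 itself had 174 to 568 reads in each Col-0 library and 10 to 47 in each npf8.4-1 library. On the first principal component of log2 expression, the third day 2 library of Col-0 (49.7) and of npf8.4-1 (51.4) lay nearer to the day 0 libraries than the other day 2 libraries did (66.4 to 82.9). Summed levels of 5 mesophyll markers were 27900 to 41900 counts per 1000000 reads (CPM) across libraries, while 6 root markers summed to 0.604 to 5.26 CPM, with EXPA7 and PHT1;1 at 0 reads in every library. Of 5 meristem and flower markers, STM and LFY were at 0 reads and the sum was 1.58 to 5.58 CPM. Differences were tested on the read counts with the edgeR quasi-likelihood test, with p adjusted over 19416 genes and a threshold of 0.05. Levels within and between genes are given as TPM (a length-corrected level scaled to a fixed total per library), and log2 fold changes are those of the count fit with their standard error (SE).

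In Col-0, depletion raised 3 of the 8 genes (ASPGB1, GDH1 and GDH3) and lowered 3 (ASN1, ASN2 and ASN3), while ASPGA1 and GDH2 did not pass. Depletion moved much of the transcriptome: 29.6% of all tested genes were called higher and 30.4% lower, so the number of the 8 genes called is near the background and only the direction and size of each change is described. In npf8.4-1, 4 genes rose (ASPGB1, GDH1, GDH2 and GDH3) and 2 fell (ASN2 and ASN3), with ASN1 and ASPGA1 not passing; 32.5% of all tested genes were called higher and 31.6% lower there. The median log2 fold change of the 8 genes was 0.24 (Col-0) and 0.36 (npf8.4-1), where all tested genes had 0.02 and 0.03. All 8 passed the filter on low counts. In bulk leaf RNA, fewer cells of a type and less RNA per cell cannot be told apart, and this holds for each change below. Both counts were the same when the third day 2 library of each genotype was left out. GDH3 rests on a total of 151 reads over the 12 libraries and is treated separately.

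**Figure D1:**
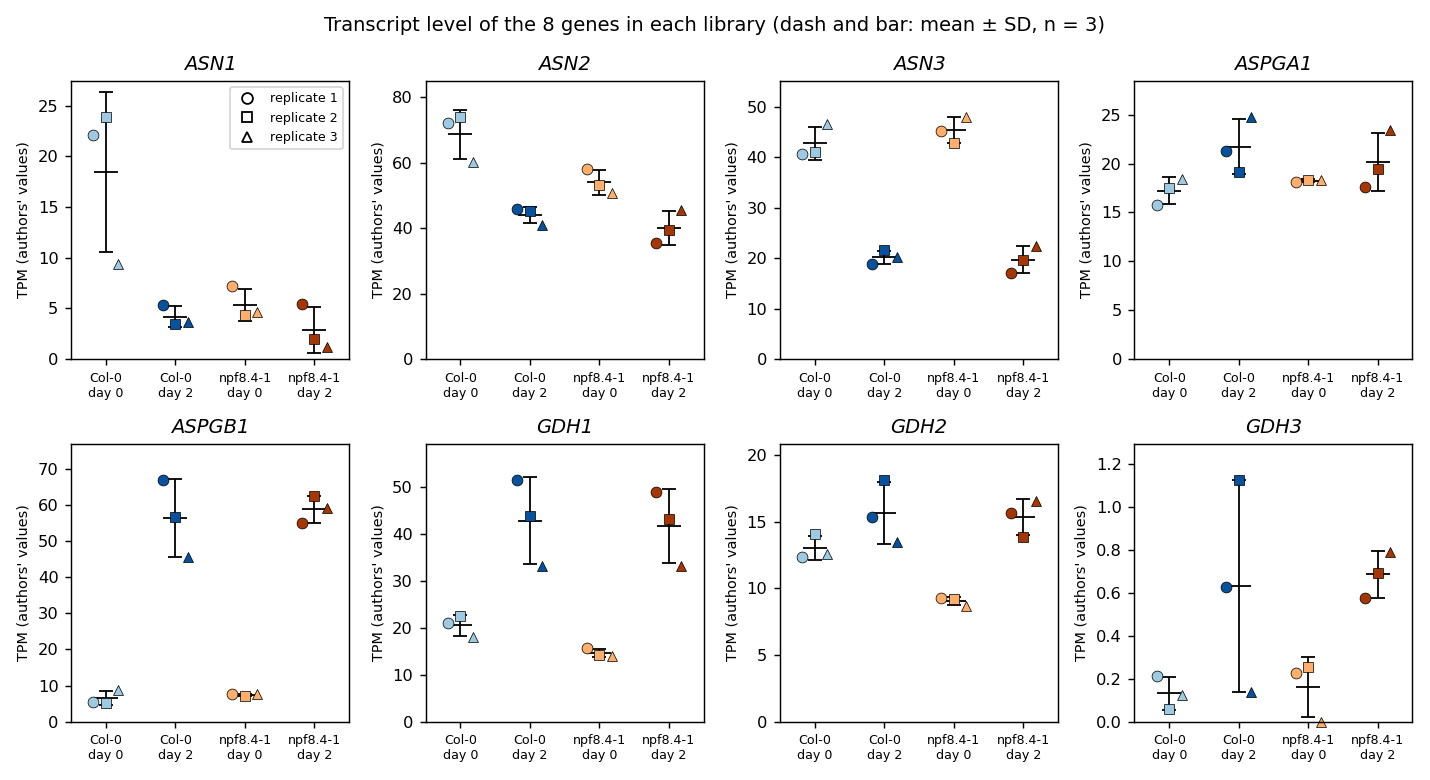
TPM of each of the 8 genes in every library, 1 panel per gene with its own linear scale, grouped by genotype and day (points are libraries, marker shape is the replicate number, the bar is the mean of 3). ASPGB1 sits at 5.14 to 8.65 TPM in the 6 day 0 libraries and at 45.5 to 66.8 TPM in the 6 day 2 libraries, while ASN2 and ASN3 are lower at day 2 in both genotypes without overlap, and ASN1 is lower without overlap in Col-0 and overlaps in npf8.4-1.

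The asparagine synthetases all fell in Col-0. ASN2, a synthetase gene known to be raised by light where ASN1 is repressed, was the most abundant of the 3 at day 0. It lay on chromosome 5 (chr5:25969035-25972575, plus strand, TAIR10, up to 13 exons). Its level in the 3 Col-0 libraries was 72.1, 73.9 and 60.2 TPM at day 0 and 45.8, 45.1 and 41.1 TPM at day 2. The groups did not overlap, and the log2 fold change was -0.71 (SE 0.11, edgeR adjusted p = 0.000147). In npf8.4-1 it was 58.2, 53.1 and 50.7 TPM at day 0 and 35.3, 39.4 and 45.5 TPM at day 2, again without overlap, with a log2 fold change of -0.52 (SE 0.11, edgeR adjusted p = 0.00125).

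ASN3 (chr5:3212651-3216551, minus strand, up to 14 exons), a close relative of ASN2, fell further. Col-0 libraries held 40.6, 41.1 and 46.6 TPM at day 0 and 18.9, 21.5 and 20.2 TPM at day 2. In npf8.4-1 the values were 45.3, 42.8 and 47.9 TPM at day 0 and 17.1, 19.6 and 22.5 TPM at day 2. All 6 day 0 libraries stood above all 6 day 2 libraries. The log2 fold change was -1.14 (SE 0.10, edgeR adjusted p = 1.20e-06) in Col-0 and -1.29 (SE 0.10, edgeR adjusted p = 3.31e-07) in npf8.4-1. ASN2 and ASN3 share 86.7% of aligned coding bases, with a longest identical stretch of 32 bases. The aligner is not named in the labels or headers, so how reads from stretches alike in both were assigned is not known.

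ASN1 (chr3:17437840-17441431, minus strand, up to 10 exons) was the least steady of the synthetases. Its biological coefficient of variation, which is the spread between replicates that counting does not give, was 43.6%, larger than in 98.1% of tested genes, where the median was 12.1%. It measured 22.1, 23.9 and 9.40 TPM in the day 0 Col-0 libraries and 5.34, 3.51 and 3.63 TPM in the day 2 ones. The lowest day 0 library was still above the highest day 2 library, and the log2 fold change was -2.23 (SE 0.52, edgeR adjusted p = 0.0043). In npf8.4-1 the values were 7.18, 4.30 and 4.61 TPM at day 0 and 5.40, 1.98 and 1.19 TPM at day 2. These groups overlapped, and the log2 fold change of -0.99 (SE 0.53) did not pass (edgeR adjusted p = 0.13). This value moved with 1 library: without the first day 2 library of npf8.4-1 the log2 fold change was -1.85 (edgeR adjusted p = 0.00616). The gene AT3G47341 overlaps ASN1 on the other strand and had 0 reads.

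Summed over the 3 synthetase genes, the level was 130 ± 12.1 TPM in Col-0 at day 0 (SD, n = 3) and 68.4 ± 2.98 TPM at day 2. In npf8.4-1 the sum was 105 ± 5.36 TPM at day 0 and 62.7 ± 5.86 TPM at day 2. The makeup of the sum also shifted. ASN2 held 52.9% ± 0.888 of it in Col-0 at day 0 and 64.4% ± 1.04 at day 2, and 51.6% ± 2.14 and 63.8% ± 2.45 in npf8.4-1. Its share at day 2 was above that at day 0 in all libraries of both genotypes. ASN1 held 13.9% ± 5.04 in Col-0 at day 0, above the 5.08% ± 1.22 of npf8.4-1 in every library.

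The 250 bases before the annotated gene start are shown for ASN1, which fell most among the synthetases in Col-0 (in npf8.4-1 it did not pass and ASN3 fell most) and carries a G-box, for ASPGB1, which rose most, and for the pair GDH1 and GDH2, which differ in the letters searched. They were read from the RefSeq TAIR10.1 genome on the gene's own strand. Capitals mark the G-box CACGTG, the letters bound by many bZIP and bHLH factors, which holds the core ACGT inside it.
ASN1 (chr3:17441432-17441681, minus strand): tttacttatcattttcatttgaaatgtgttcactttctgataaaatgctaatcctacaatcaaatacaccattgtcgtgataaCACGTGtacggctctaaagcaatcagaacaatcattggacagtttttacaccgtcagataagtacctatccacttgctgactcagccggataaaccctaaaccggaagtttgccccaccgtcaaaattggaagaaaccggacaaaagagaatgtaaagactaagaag
ASPGB1 (chr3:5471485-5471734, plus strand): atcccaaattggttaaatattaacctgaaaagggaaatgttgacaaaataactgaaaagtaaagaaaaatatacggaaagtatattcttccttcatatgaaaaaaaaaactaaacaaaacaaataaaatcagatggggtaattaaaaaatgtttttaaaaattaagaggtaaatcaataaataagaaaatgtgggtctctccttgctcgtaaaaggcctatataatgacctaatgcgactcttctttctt
GDH1 (chr5:6005785-6006034, plus strand): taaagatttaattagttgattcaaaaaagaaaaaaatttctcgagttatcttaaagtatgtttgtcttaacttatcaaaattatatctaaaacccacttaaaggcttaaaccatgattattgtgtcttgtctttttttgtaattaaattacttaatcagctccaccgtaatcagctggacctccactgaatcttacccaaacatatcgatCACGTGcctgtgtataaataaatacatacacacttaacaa
GDH2 (chr5:2355509-2355758, plus strand): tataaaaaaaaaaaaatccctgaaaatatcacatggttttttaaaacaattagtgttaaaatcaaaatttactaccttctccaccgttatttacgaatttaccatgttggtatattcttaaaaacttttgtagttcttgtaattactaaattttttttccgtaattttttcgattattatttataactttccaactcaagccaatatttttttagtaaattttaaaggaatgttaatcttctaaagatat
The G-box began 167 bases before the start of ASN1 and 40 bases before that of GDH1. Of all 27438 promoter windows of this length, 6.49% held CACGTG and 44.1% held ACGT. The other 6 genes had no CACGTG, and ASN2 had a lone ACGT 48 bases before its start. ACTCAT, searched on both strands like the others, was in none of the 8 windows and in 12.3% of all windows. ASN1, which fell in Col-0, and GDH1, which rose, both hold the G-box letters; a match is a description of the sequence and shows no binding.

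The asparaginases diverged under depletion. ASPGB1 (chr3:5471735-5473360, plus strand, 4 exons) encodes the asparaginase whose activity depends on potassium. It measured 5.59, 5.14 and 8.65 TPM in the Col-0 libraries at day 0 and 66.8, 56.7 and 45.5 TPM at day 2. In npf8.4-1 the libraries held 7.60, 7.13 and 7.67 TPM at day 0 and 54.8, 62.4 and 59.0 TPM at day 2. The rise was 8.35-fold in Col-0 (log2 3.06, SE 0.15, edgeR adjusted p = 4.26e-08) and 7.38-fold in npf8.4-1 (log2 2.88, SE 0.15, edgeR adjusted p = 3.58e-08). No day 2 library came within the day 0 range. It ranked seventh of the 8 genes in Col-0 and sixth in npf8.4-1 at day 0, and first in both genotypes at day 2.

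ASPGA1 (chr5:2592976-2594701, minus strand, up to 4 exons) encodes the asparaginase that works without potassium. Neither depletion comparison passed. Its Col-0 libraries held 15.7, 17.6 and 18.4 TPM at day 0 and 21.3, 19.2 and 24.7 TPM at day 2, with a log2 fold change of 0.29 (SE 0.14, edgeR adjusted p = 0.0924). In npf8.4-1 it was 18.1, 18.3 and 18.3 TPM, then 17.6, 19.4 and 23.4 TPM, with a log2 fold change of 0.05 (SE 0.14, edgeR adjusted p = 0.774). The Col-0 call turned on the setting: with library totals in place of the trimmed mean of M-values it was 0.32 on the log2 scale (edgeR adjusted p = 0.0453), and without the second day 2 library of Col-0 it was 0.40 (edgeR adjusted p = 0.0286).

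Together the asparaginase pair summed to 23.7 ± 3.03 TPM in Col-0 at day 0 and 78.1 ± 9.16 TPM at day 2 (SD, n = 3), and to 25.7 ± 0.270 and 78.9 ± 5.62 TPM in npf8.4-1. ASPGB1 made up 26.9% ± 4.68 of the sum in Col-0 at day 0 and 71.8% ± 6.09 at day 2, and 29.0% ± 0.888 and 74.5% ± 2.57 in npf8.4-1. In each library at day 0 ASPGA1 was the larger of the pair, and in each library at day 2 ASPGB1 was. The asparaginase sum was below the synthetase sum in every library at day 0, and above it in every library of both genotypes at day 2.

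**Figure D2:**
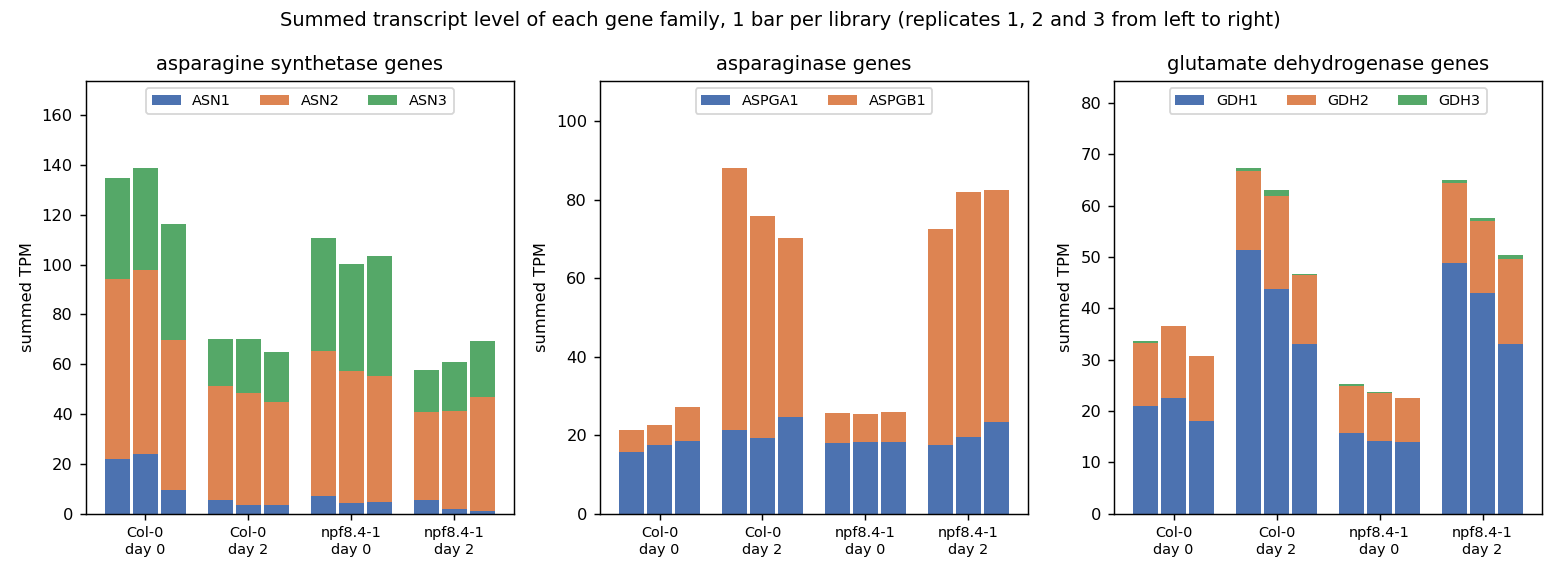
Summed TPM of the 3 synthetase, 2 asparaginase and 3 glutamate dehydrogenase genes in each library, as stacked bars (1 bar per library, linear axis from 0, colours are genes). The synthetase sum is 116 to 139 TPM and the asparaginase sum 21.3 to 27.1 TPM in Col-0 at day 0, against 64.9 to 70.2 TPM and 70.2 to 88.1 TPM at day 2.

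Of the glutamate dehydrogenase genes, GDH1 passed in both genotypes, GDH2 in npf8.4-1 alone, and GDH3 in both on few reads; the difference between genotypes is tested below. GDH1 (chr5:6006035-6008726, plus strand, 9 exons) encodes the beta subunit of the enzyme, a hexamer whose subunits are found mainly in the mitochondria of phloem companion cells. It was 21.0, 22.5 and 18.1 TPM in Col-0 at day 0 and 51.4, 43.8 and 33.1 TPM at day 2. In npf8.4-1 it was 15.7, 14.2 and 13.96 TPM at day 0 and 48.8, 43.1 and 33.1 TPM at day 2. The groups were apart in both genotypes, with a log2 fold change of 0.99 (SE 0.15, edgeR adjusted p = 0.000118) in Col-0 and 1.42 (SE 0.15, edgeR adjusted p = 5.47e-06) in npf8.4-1. The lowest day 2 value in each genotype was that of the third library, the one that lay nearer to day 0. Without both, the log2 fold changes were 1.1 and 1.55.

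GDH2 (chr5:2355759-2358241, plus strand, 8 exons) encodes the alpha subunit. Col-0 had 12.4, 14.05 and 12.6 TPM at day 0 and 15.4, 18.1 and 13.5 TPM at day 2, and the change of 0.20 on the log2 scale (SE 0.11) did not pass (edgeR adjusted p = 0.12). In npf8.4-1 it went from 9.25, 9.21 and 8.66 TPM to 15.7, 13.9 and 16.5 TPM, a log2 fold change of 0.67 (SE 0.11, edgeR adjusted p = 0.000139). In TPM, its npf8.4-1 libraries lay below those of Col-0 at day 0 and within the range of Col-0 at day 2. In CPM, the second npf8.4-1 library at day 2 (16.6) lay below the lowest of Col-0 (18.1). Across the 6 day 0 libraries the ratio of GDH2 to GDH1 in TPM was 0.590 to 0.697, and across the 6 day 2 libraries 0.299 to 0.50, so the 2 days did not overlap in this ratio. The GDH sum was 33.6 ± 2.90 TPM in Col-0 at day 0 and 59.0 ± 10.9 TPM at day 2, and 23.8 ± 1.28 and 57.7 ± 7.31 TPM in npf8.4-1.

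GDH3 (chr3:1006780-1009018, plus strand, 9 exons) encodes a further subunit known mainly from roots. It had 7, 2 and 4 reads in the Col-0 day 0 libraries, 7, 8 and 0 in those of npf8.4-1, 18, 34 and 4 in Col-0 at day 2, and 19, 23 and 25 in npf8.4-1 at day 2. The log2 fold change was 2.14 (SE 0.76, edgeR adjusted p = 0.0272) in Col-0 and 1.94 (SE 0.73, edgeR adjusted p = 0.0335) in npf8.4-1, but the Col-0 groups overlapped and leaving out any one of 3 Col-0 libraries, or any one of 4 npf8.4-1 libraries, lost the call. Without them edgeR's adjusted p was 0.0766 to 0.162 in Col-0 (the second and the third day 0 and the second day 2 library) and 0.0516 to 0.0967 in npf8.4-1 (the first and the third day 0 and the second and the third day 2 library). Its coding sequence shares 86.0% of aligned bases with GDH1, with an identical run of 59 bases. The gene also overlaps AT3G03920 on the other strand, which had 20703 reads. No label or header states the strand setting of the counting, so which gene reads within the overlap, at the 3′ ends of both, came from is not known.

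Vascular markers moved with depletion beside the GDH1 and ASPGB1 results. Of 9 vascular markers, 6 rose in Col-0 and 8 in npf8.4-1, and none fell. Over all tested genes, 29.6% rose and 30.4% fell in Col-0, and 32.5% rose and 31.6% fell in npf8.4-1. One of the 6 in Col-0, IRX3 (log2 0.22, edgeR adjusted p = 0.0462), passed in 6 of 14 alternatives and had the adjusted p range 0.0235 to 0.162. Their summed level was 344 to 457 CPM in Col-0 and 277 to 379 CPM in npf8.4-1 at day 0, and 812 to 918 CPM and 794 to 978 CPM at day 2. None of the 9 was at 0. The median log2 fold change of the list was 1.03 in Col-0 and 1.39 in npf8.4-1, close in size to the GDH1 change, but the list was split. SUC2, SWEET11, SWEET12, PP2-A1 and AHA3 changed by 1.03 to 2.44 in Col-0 and by 1.39 to 2.97 in npf8.4-1. For APL, XCP1, IRX3 and ATHB8 the changes were 0.0 to 0.29 and 0.01 to 0.52. The part of the vascular markers in these results was not tested. Of the 5 mesophyll markers, 2 rose and none fell in Col-0, and 2 rose and 2 fell in npf8.4-1. The 2 that fell, RBCS1A and LHCB1.1, each passed in 11 of 14 alternatives. Their highest edgeR adjusted p was 0.128 and 0.133.

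**Figure D3:**
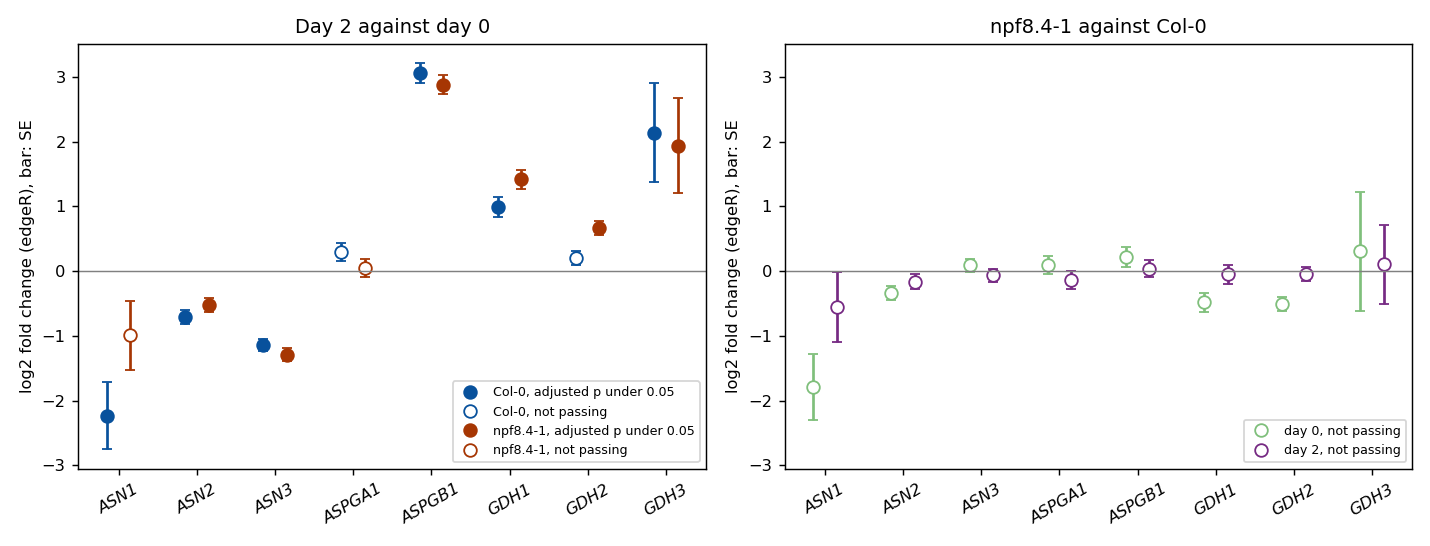
Log2 fold changes of the edgeR fit for the 8 genes with bars of 1 SE, day 2 against day 0 in each genotype (left) and the mutant against Col-0 on each day (right); filled circles had an adjusted p under 0.05. ASPGB1 is at 3.06 and 2.88 on the left, and no circle on the right is filled.

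The genotypes were compared on each day to ask whether the loss of NPF8.4 moved these genes. At day 0 none of the 8 passed the threshold with edgeR, against 0.149% of all tested genes called. The DESeq2 test called 1, GDH2, and over all tested genes it called 109 higher and 123 lower. With a replicate block, edgeR called 2 lower (GDH1, adjusted p = 0.0278, and GDH2, adjusted p = 0.0494). Over all tested genes the block gave 47 higher and 126 lower. With an unadjusted p under 0.05, 4 of the 8 were lower in npf8.4-1 (ASN1, ASN2, GDH1 and GDH2) and none higher, against 4.23% of all tested genes lower on the same terms. In these 4 every npf8.4-1 library was below every Col-0 library, which holds for 7.52% of all tested genes. GDH2 had the smallest p: it was 16.7 ± 1.30 CPM in Col-0 and 11.7 ± 0.838 CPM in npf8.4-1 (SD, n = 3), a log2 fold change of -0.51 (SE 0.11, edgeR adjusted p = 0.115). ASN1 differed most, at 32.6 ± 14.6 and 9.38 ± 2.46 CPM, with -1.79 on the log2 scale (SE 0.51, edgeR adjusted p = 0.331).

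The GDH1 value at day 0 was -0.48 (SE 0.15, edgeR adjusted p = 0.362), from 24.2 ± 3.30 CPM in Col-0 to 17.3 ± 1.02 CPM in npf8.4-1. ASN2 was 97.6 ± 13.6 and 77.0 ± 5.59 CPM, with -0.34 on the log2 scale (SE 0.11, edgeR adjusted p = 0.391). A part of the vascular markers leaned the same way as GDH1 on that day, with a median log2 fold change of -0.29 over the list. SWEET11 was at -0.47, SWEET12 at -0.44, PP2-A1 at -0.38, SUC2 at -0.31 and AHA3 at -0.29. Nearer to none were APL at -0.16, XCP1 at -0.10, IRX3 at 0.0 and ATHB8 at 0.03. None of the 9 passed (edgeR), and their summed levels overlapped (344 to 457 CPM in Col-0, 277 to 379 CPM in npf8.4-1). Their part in the GDH1 and GDH2 values was not tested. ASN3, ASPGA1, ASPGB1 and GDH3 had log2 fold changes of 0.09, 0.09, 0.22 and 0.31 and did not pass, with overlapping groups.

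At day 2 no difference between the genotypes passed in any of the 8 genes. The log2 fold changes ran from -0.55 for ASN1 to 0.11 for GDH3, and each group overlapped its counterpart. The ASN1 value was -1.41 without the first day 2 library of npf8.4-1 (unadjusted p = 0.0121, edgeR adjusted p = 0.226). edgeR called 0 of the 8 and none reached an unadjusted p under 0.05, while 1.44% of all tested genes were called by edgeR and 12.7% had an unadjusted p under 0.05. Without the third day 2 library of both genotypes, edgeR again called 0 of the 8, and 1 was lower with an unadjusted p under 0.05. DESeq2 also called 0 of the 8, and over all tested genes it called 259 higher and 525 lower. ASN2 was at -0.16 (SE 0.11, edgeR adjusted p = 0.648) and ASPGA1 at -0.14 (SE 0.14, edgeR adjusted p = 0.762). The SE of the ASN3, ASPGB1, GDH1 and GDH2 differences at day 2 was between 0.10 and 0.15 on the log2 scale. That of ASN1 was 0.54 and that of GDH3 was 0.61. Changes of several SE could also miss the threshold, as GDH2 did at day 0 with -0.51 (SE 0.11, edgeR adjusted p = 0.115). Whether depletion acted differently in the genotypes was asked with the interaction, the depletion change of npf8.4-1 less that of Col-0. None of the 8 passed with edgeR, 1 had an unadjusted p under 0.05 (GDH2, 0.47, SE 0.15, edgeR adjusted p = 0.343), and DESeq2 called 0. Across all tested genes 0.00% passed with edgeR and 9.06% had an unadjusted p under 0.05, while DESeq2 called 56 higher and 213 lower. GDH1 followed at 0.43 (SE 0.21, edgeR adjusted p = 0.584) and ASN1 at 1.24 (SE 0.74, edgeR adjusted p = 0.681). Without the first day 2 library of npf8.4-1 the ASN1 interaction was 0.38 (edgeR adjusted p = 0.928).

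Ordered by TPM, the genes in Col-0 at day 0 ran ASN2, ASN3, GDH1, ASN1, ASPGA1, GDH2, ASPGB1 and GDH3. The libraries of neighbours overlapped between GDH1 and ASN1 and between ASN1 and ASPGA1, and not between the other neighbours. In npf8.4-1 at day 0 ASN1 stood seventh, with only the pair ASPGB1 and ASN1 overlapping. At day 2 ASPGB1 was first, then ASN2 and GDH1 in Col-0, with overlap between each of these neighbours, or GDH1 and ASN2 in npf8.4-1, where GDH1 and ASN2 overlapped and ASPGB1 and GDH1 did not. ASPGA1, ASN3, GDH2, ASN1 and GDH3 followed in both, with ASPGA1 and ASN3 overlapping. The order by RPKM was the same in all 4 groups.

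The genes whose pattern over the 12 libraries came nearest to each of the 8 were found as a description, by the root mean square difference of log2 CPM centred on the mean of the libraries, among 14079 genes with a mean of at least 5 CPM. ASN3 had the closest neighbours, with RPS18C, a protein of the small ribosomal subunit, at 0.044, emb2004 at 0.047 and AT2G40660 at 0.051. GDH1 was nearest to J20, at 0.095, then AT3G47010 (0.11) and CYP71B5 (0.12). For GDH2 the nearest were IQD11 (0.118), AT1G19400 (0.122) and AT4G24060 (0.125). ASN2 lay nearest to PPC2, a phosphoenolpyruvate carboxylase (0.104), then AT1G28100 (0.117) and AT2G04378 (0.118). ASPGA1 lay nearest to UGT80B1 (0.084), AT3G12260 (0.089) and mMDH2 (0.096). For ASPGB1 the nearest were AT1G22160 (0.235), EXO70E2 (0.297) and GLN1;1, the cytosolic glutamine synthetase (0.299). ASN1 and GDH3, whose own spread was larger, had no near partners: BXL1 (0.373), AT5G22920 (0.454) and AT2G20670 (0.511) for ASN1, and XTH31 (0.532), AT3G46490 (0.581) and GLR2.7 (0.613) for GDH3.

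The 6 neighbouring lists of nitrogen and carbon genes give the setting of these changes, and each is described by its counts. These read against the shares of all tested genes called higher (29.6% in Col-0, 32.5% in npf8.4-1) and lower (30.4%, 31.6%), so a count near these shares is no result about a list. In the synthesis of glutamine and glutamate, 4 of 9 genes rose and 1 fell in Col-0, and 5 rose and 2 fell in npf8.4-1 (median log2 fold change 0.28 and 0.47). GLN1;1 rose from 36.4 ± 1.55 to 239 ± 23.2 CPM in Col-0 (log2 2.72, SE 0.10, edgeR adjusted p = 9.66e-09) and by 2.59 in npf8.4-1 (edgeR adjusted p = 1.34e-08). GLN1;4, another cytosolic glutamine synthetase, rose by 2.07 and 2.20, and GLU2, a ferredoxin-dependent glutamate synthase, by 0.82 and 0.87 on the log2 scale. Of the genes that supply aspartate, 2 rose and 2 fell in both genotypes (medians -0.01 and 0.02 of 6). ASP4 rose by 2.75 in Col-0 and 3.23 in npf8.4-1 from a level of 0.531 ± 0.0925 CPM, and ASP2, the cytosolic aspartate aminotransferase, by 0.63 and 0.61. ASP5, the plastid form, changed by -0.33 and -0.37, and ASP1, the mitochondrial form, by -0.22 and -0.58 on the same scale. The Col-0 call of ASP1 (edgeR adjusted p = 0.0305) was lost when any 1 of the 6 Col-0 libraries was left out (highest adjusted p = 0.119) and with scaling by library totals.

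Of 5 genes that use aspartate, 2 rose and 2 fell in Col-0, and 3 rose and 2 fell in npf8.4-1. AK3, an aspartate kinase at the entry to the lysine and threonine branch, rose from 3.40 ± 0.196 to 59.2 ± 18.2 CPM in Col-0 (log2 4.12, SE 0.26, edgeR adjusted p = 3.50e-07) and by 5.13 in npf8.4-1. AK1 and AK-HSDH2, in the same step, fell by 0.76 and 0.92 on the log2 scale in Col-0 and by 0.87 and 0.93 in npf8.4-1. In the GABA shunt, which turns glutamate into succinate by way of GABA, 3 of 4 tested genes rose in both genotypes and none fell. GAD2, a glutamate decarboxylase, rose by 0.98 and 1.16, and POP2, the GABA transaminase, by 0.83 and 0.95. GAD1 rose by 1.78 and 2.52 from 0.133 ± 0.0217 CPM in Col-0, and its Col-0 call was lost without the first day 2 library (1.29, edgeR adjusted p = 0.0739).

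Of 13 genes of amino acid breakdown, 3 rose and 3 fell in Col-0, and 5 rose and 2 fell in npf8.4-1. PRODH1, the proline dehydrogenase, fell by 2.05 on the log2 scale in Col-0 (SE 0.22, edgeR adjusted p = 1.03e-05) and by 1.59 in npf8.4-1. ETFBETA and IVD, of the electron transfer route from branched-chain amino acids, rose by 0.59 and 0.47 in Col-0 and by 0.80 and 0.62 in npf8.4-1. Among 11 genes of low-energy signalling, 5 rose and 3 fell in Col-0, and 6 rose and 3 fell in npf8.4-1. BZIP10 rose by 1.12 and 1.29, and BZIP11, a bZIP factor that activates ASN1, fell from 17.0 ± 3.22 to 6.75 ± 1.20 CPM in Col-0 (log2 -1.34, SE 0.20, edgeR adjusted p = 9.12e-05) and by 1.95 in npf8.4-1. At day 0 BZIP11 had the higher mean in npf8.4-1 (23.2 ± 3.45 CPM, edgeR adjusted p = 0.597 against Col-0), where ASN1 had the lower mean. The part of BZIP11 in the ASN1 values was not tested. KIN10, the catalytic subunit of the SnRK1 energy-sensing kinase, rose by 0.48 and 0.62. BZIP1 changed by -0.63 in Col-0 and -1.46 in npf8.4-1.

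**Figure D4:**
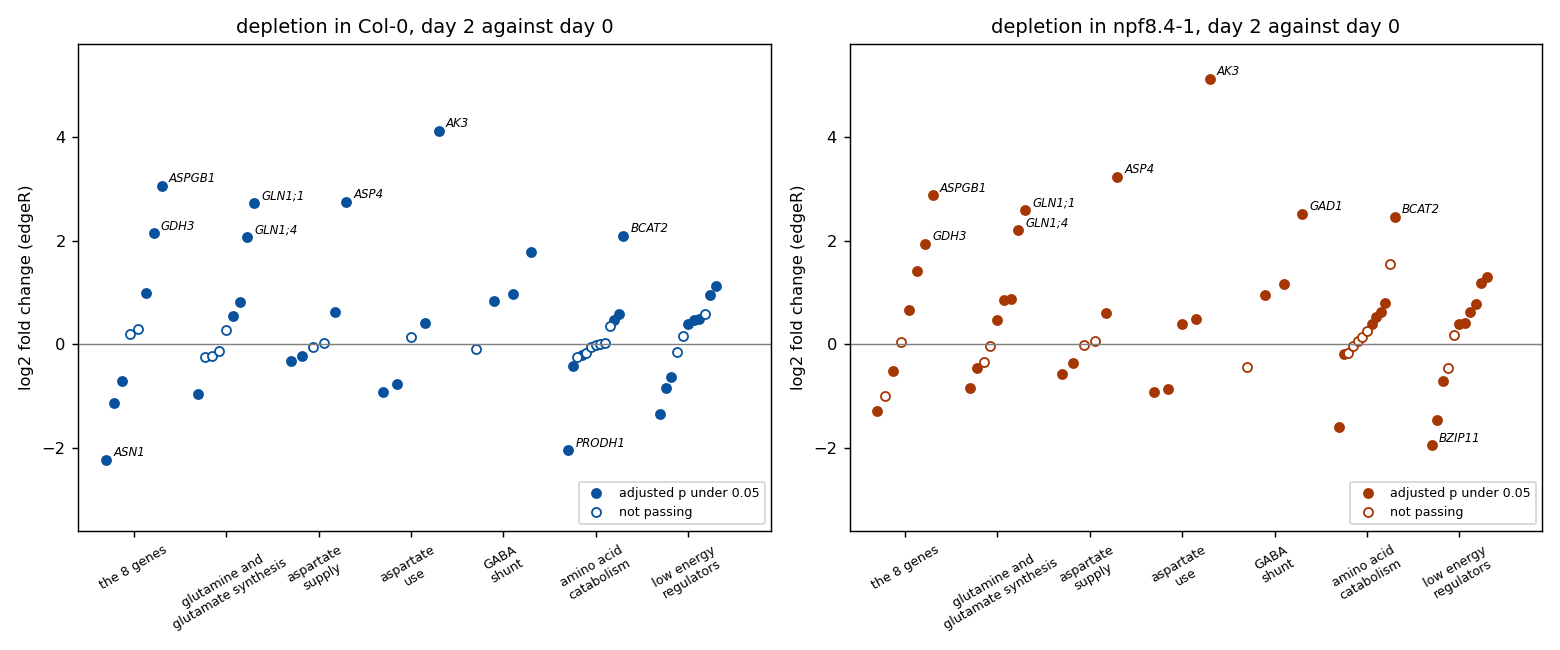
Log2 fold changes of the edgeR fit at day 2 against day 0 for the 8 genes and the 6 neighbouring lists, 1 circle per tested gene, in Col-0 (left) and npf8.4-1 (right); filled circles had an adjusted p under 0.05. AK3 is the highest circle in each panel (4.12 and 5.13), and ASPGB1 the highest of the 8 genes (3.06 and 2.88).

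In the genotype comparisons, 2 genes of these lists passed the threshold, both at day 2 and both bZIP factors of low-energy signalling. BZIP1 was 11.6 ± 2.14 CPM in Col-0 and 5.69 ± 1.13 CPM in npf8.4-1 (log2 -1.02, SE 0.18, edgeR adjusted p = 0.0165). BZIP53 was 79.7 ± 25.1 and 34.9 ± 5.76 CPM (log2 -1.19, SE 0.24, edgeR adjusted p = 0.0352). Without the third day 2 library of both genotypes neither passed (edgeR adjusted p = 0.122 and 0.213). Leaving out the second or the third npf8.4-1 library alone lost the BZIP1 call (0.111 and 0.0702). For BZIP53 the call was lost without any one of 5 of the 6 day 2 libraries (edgeR adjusted p = 0.0839 to 0.179). No gene of these lists passed at day 0 or in the interaction.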

How the data were processed

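Poly(A) RNA of young leaves was sequenced in 12 libraries with a stranded mRNA kit, per the labels' protocols. The authors deposited 1 table per library with exon read counts, TPM and RPKM for 37242 genes, per the file headers. Per the submitters' processing notes, bcl2fastq 2.17.1.14 was used and the build was TAIR10. Neither labels nor headers name the aligner, counter, strand setting or annotation version. Of the gene IDs, 36810 matched the RefSeq table and 36806 had identical ends. Only the counts were tested; the deposited TPM and RPKM values describe levels.

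Counts of all 12 libraries entered 1 quasi-likelihood fit in edgeR 4.0.16 (with limma 3.58.1 under R 4.3.3), with a mean for each of 4 groups, filterByExpr filtering, TMM scaling and robust dispersion. Benjamini-Hochberg adjustment of p ran over 19416 genes. The fit was tested on simulated data. The 8 genes, the lists and the naming rule were chosen with earlier results of these data known. The rule names all 8 genes, the 3 smallest p past the threshold per list in each depletion comparison, every list gene past it in the other comparisons, and the 3 most alike genes. Alternatives were DESeq2 size factors, library totals, the DESeq2 test (1.42.0), 1 read or 1 CPM as filters, only the groups compared, a replicate block, RPKM for TPM, each library left out, and the third day 2 library of both genotypes left out. No replicate pair agreed within sampling noise by a chi-square statistic.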

Additional observations from a re-analysis of the deposited data

How the results depend on the processing

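The calls for depletion (3 higher and 3 lower of the 8 genes in Col-0, 4 and 2 in npf8.4-1) moved by at most 1 gene when a library was left out: 2 to 3 higher and 3 lower in Col-0, and 3 to 4 higher and 2 to 3 lower in npf8.4-1. Left-out libraries gave 0 calls between genotypes and in the interaction. For the genotype at day 0, where edgeR called 0 of the 8 lower, the DESeq2 test called 1 (GDH2, adjusted p = 0.00905) and the replicate block 2 (GDH1, 0.0278, and GDH2, 0.0494). The replicate numbers matched the libraries in part: same-numbered libraries correlated above 0.1 in 10 of 18 pairs, and 19 of 36 best matches had the same number. The correlations were 0.064 to 0.418 for replicates 1 and 3, and -0.173 to 0.02 for replicate 2. No label names a shared batch, and the main fit holds no block. With the block, ASN1 in npf8.4-1 gave -1.13 (adjusted p = 0.0433) and the GDH3 interaction 0.01. Over all genes, calls higher and lower at day 0 were 6 and 23 with edgeR, 109 and 123 with DESeq2, 47 and 126 with the block and 3 higher with library totals. At day 2 they were 94 and 185, against 259 and 525 (DESeq2), 260 and 355 (block), 31 and 99 (only the groups compared) and 12 and 32 (without the third day 2 library of both genotypes); leaving out 1 library gave 7 to 124 higher and 22 to 222 lower, and at day 0 it gave 1 to 4 and 10 to 28. For the interaction they were 0 and 0, against 56 and 213 (DESeq2) and 15 and 28 (block); the cause was not tested.

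Values near 0 changed sign. Without the third day 2 library of both genotypes, ASPGA1 in npf8.4-1 was -0.08, and at day 2 between genotypes ASPGB1 was -0.06 and GDH3 -0.45. Leaving out 1 library gave ranges of -0.08 to 0.13 for ASPGA1 in npf8.4-1 and -0.21 to 0.87 for GDH3 at day 0. At day 2 they were -1.41 to -0.19 for ASN1, -0.17 to 0.03 for ASN3, -0.07 to 0.15 for ASPGB1, -0.19 to 0.09 for GDH1, -0.12 to 0.03 for GDH2 and -0.35 to 0.78 for GDH3. For the interaction the range was 0.38 to 1.6 for ASN1 and -0.76 to 0.47 for GDH3. BZIP53 also missed the threshold with no filter beyond 1 read, with only the groups compared and with the block, and BZIP1 with only the groups compared. Some list calls counted under depletion were also lost without at least 1 library, among them P5CDH, BCAT2, MCCA and BZIP44 in Col-0, and P5CDH and LKR/SDH in npf8.4-1. Depth limits GDH3 most, with 0 to 34 reads a library.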
